A study of Mus musculus with 6 samples.

Results

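A set of 7 genes of γ-aminobutyric acid (GABA) handling was described in whole islets of Ucn3 null and wild-type mice: Gad1 and Gad2, which make GABA, Abat, which breaks it down, Slc32a1, which loads it into vesicles, and the receptor genes Gabra4, Gabbr1 and Gabbr2. They were chosen by symbol, and each was represented by the RefSeq transcript with the highest mean over the 6 libraries, which gave 7 genes of 21813 symbols in the table. The table gives RPKM, a read count divided by transcript length and by library depth. Levels can thus be compared between genes roughly, as far as the transcript length used holds for the islet message. The animals were males of 3 months, 3 Ucn3 null and 3 of their wild-type littermates, and each gave 1 library of islet RNA. The labels give neither the strain nor how the null allele was made, and they call the islets mixed in cell type while the extraction text mentions a cell sort. No label ties a null animal to a wild-type animal.

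GABA is made from glutamate by glutamate decarboxylase, an enzyme with a larger form encoded by Gad1 and a smaller form encoded by Gad2, the second of which is a well-known autoantigen in autoimmune diabetes. Beta cells of the islet make GABA and release it, and it acts on GABA-A receptors, which are chloride channels built of several subunits, and on GABA-B receptors, which pair the products of Gabbr1 and Gabbr2 and signal through inhibitory G proteins. In neurons the product of Slc32a1 carries GABA into synaptic vesicles, and GABA transaminase, the product of Abat, starts its breakdown through the shunt that returns its carbon to the citric acid cycle.

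Nearly all decarboxylase message in islet RNA came from Gad1. Gad1 averaged 22.2 RPKM over the 6 libraries and Gad2 0.063 RPKM, and Gad1 made up 99.5% to 99.96% of the sum of both in every library. To show where these genes begin, the 250 bases before the start of each are given as RefSeq lists them on build GRCm38.p6, plus strand, with every CG dinucleotide in capitals; Gad1 lies at chr2:70561879-70562128 and Gad2 at chr2:22622077-22622326.
Gad1: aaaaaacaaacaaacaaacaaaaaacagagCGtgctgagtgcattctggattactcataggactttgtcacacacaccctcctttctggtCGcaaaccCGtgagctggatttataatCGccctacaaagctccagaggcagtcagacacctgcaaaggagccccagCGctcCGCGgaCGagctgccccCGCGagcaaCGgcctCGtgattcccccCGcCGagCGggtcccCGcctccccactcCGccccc
Gad2: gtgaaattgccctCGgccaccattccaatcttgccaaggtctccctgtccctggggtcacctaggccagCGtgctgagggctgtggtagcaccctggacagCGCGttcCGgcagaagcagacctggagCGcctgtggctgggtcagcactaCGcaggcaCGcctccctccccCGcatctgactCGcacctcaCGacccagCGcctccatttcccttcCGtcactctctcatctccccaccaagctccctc
The Gad1 window held 17 CG and the Gad2 window 13, against a median of 6 over 32841 promoter windows of the same length. At least as many CG as in Gad1 were found in 23.5% of all windows, and at least as many as in Gad2 in 31.5%. A TATAAA was found in the Gad1 window, on the strand opposite to the gene, and none on either strand of the Gad2 window; 12.4% of all windows held one. Both windows are thus richer in CG than most, although the levels of the genes lie far apart. CG reads the same on both strands. Of the 7 genes, 6 had a window in this table, and Abat was the exception.

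Wild-type libraries held 23.5, 18.7 and 20.6 RPKM of Gad1 and Ucn3 null libraries 31.7, 20.3 and 18.5 RPKM, for replicates 1 to 3 of each genotype. Ucn3 null replicate 1 was the highest of all and Ucn3 null replicate 3 the lowest, so the wild-type values lay inside the range of the null values. The means were 20.9 ± 2.38 and 23.5 ± 7.16 RPKM (SD, n = 3 per genotype), and the difference on the log2(RPKM + 1) scale, null minus wild type, was 0.13 (SE 0.19, limma adjusted p = 0.89). Without Ucn3 null replicate 1 the difference was -0.10. The library with the most Gad1 also had the most acinar message, the RNA of the digestive-enzyme cells around islets. The sum of 10 acinar markers was 14097 RPKM there, 308 to 3891 RPKM in wild type and 2928 to 8280 RPKM in the other null libraries. Within each genotype Gad1 followed the order of the acinar sum. That sum was 3891, 308 and 1518 RPKM in wild type and 14097, 8280 and 2928 RPKM in Ucn3 null replicates 1 to 3. Across genotypes the order did not hold. Ucn3 null replicate 2, next in acinar sum at 8280 RPKM, held less Gad1 than wild type replicates 1 and 3. With the mean log2 level of these markers as a covariate the Gad1 difference was -0.26 (SE 0.20, limma adjusted p = 0.97). That mean was 3.98 to 6.92 in wild type and 6.70 to 8.59 in null islets, so the covariate goes partly with genotype. The part of acinar cells in the Gad1 values was not tested.

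Gad2 was scarce in all 6 libraries. Its values were 0.067, 0.0074 and 0.113 RPKM in wild type against 0.061, 0.092 and 0.034 RPKM in Ucn3 null replicates 1 to 3, which is about 16, 2, 32, 18, 25 and 9 reads in the same order. Wild type replicate 2, with 2 reads, had an exact 95% Poisson interval of 0.00088 to 0.026 RPKM and wild type replicate 3 one of 0.079 to 0.162 RPKM, so these animals differed by more than counting error covers, within 1 genotype. The group means were 0.062 ± 0.053 and 0.063 ± 0.029 RPKM (SD, n = 3 per genotype; exact two-sided permutation p = 1). Gad1 exceeded Gad2 between 182 and 2544 times, and the widest ratio was that of wild type replicate 2. The log2 ratio of Gad2 to Gad1 differed by 0.47 between the genotypes (exact two-sided permutation p = 0.9, adjusted over 3 ratios p = 0.9), and the sign turned without wild type replicate 2, to -0.64. With 3 animals a group such a test cannot give a p under 0.1.

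The message for the enzyme that removes GABA overlapped in range with the message for the enzyme that makes it. Abat stood at 17.1, 19.0 and 20.8 RPKM in wild type against 18.6, 20.4 and 21.2 RPKM in Ucn3 null replicates 1 to 3, with overlapping groups. The means were 19.0 ± 1.84 and 20.1 ± 1.37 RPKM (SD, n = 3 per genotype), a log2 difference of 0.08 (SE 0.09, limma adjusted p = 0.83), which ran from 0.0095 without wild type replicate 1 to 0.19 with the acinar covariate. The table lists 2 Abat transcripts, whose values keep a ratio of 1.04 in every library, so they carry the same reads and cannot be told apart. Abat varied least of the 7 genes, with a coefficient of variation of 8.01% over the 6 libraries against 22.4% for Gad1.

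The ranges of Gad1 and Abat overlapped, and Gad1 was the higher of the pair in 2 of 6 libraries. The decarboxylase sum divided by Abat was 1.37, 0.99 and 1.0 in wild type and 1.71, 1.0 and 0.87 in Ucn3 null replicates 1 to 3. Both libraries well above 1 are the replicates numbered 1, and no label ties these animals to each other. The log2 ratio differed by 0.05 between the genotypes (exact two-sided permutation p = 0.8, adjusted over 3 ratios p = 0.9).

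Slc32a1, the vesicular transporter, was all but undetected. Wild type replicate 3 held 0.022 RPKM, about 3 reads, Ucn3 null replicate 1 held 0.014 RPKM, about 2 reads, and the other 4 libraries were at 0. A count of 0 allows up to 3 reads as a one-sided 95% limit, which is 0.022 to 0.025 RPKM in those libraries, and the exact two-sided interval reaches 0.027 to 0.031 RPKM. No difference between genotypes could be seen at this depth (exact two-sided permutation p = 1). Among markers of nerve tissue in the same islets, Sox10, a transcription factor of glia, averaged 0.057 RPKM and Th, an enzyme of dopamine synthesis that islet cells can express too, 25.5 RPKM.

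**Figure D1:**
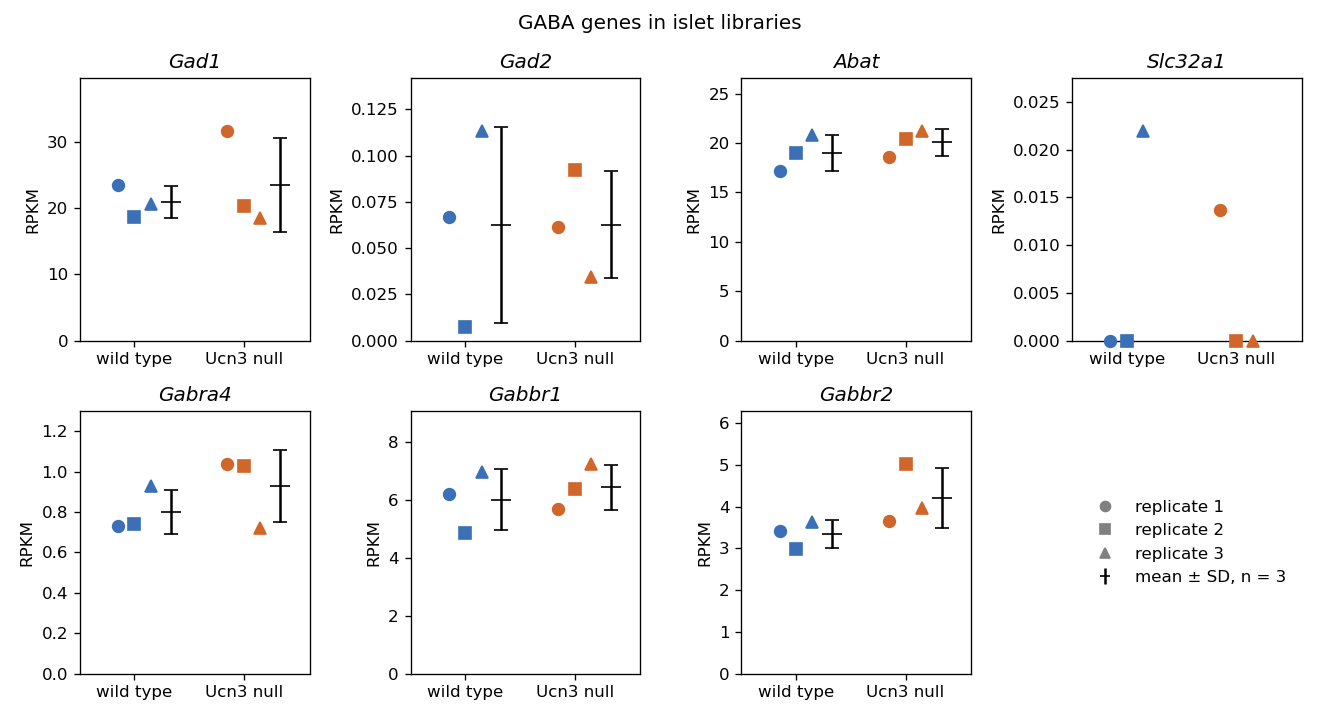
RPKM of each of the 7 genes by library, 1 panel a gene with its own linear axis from 0; blue symbols are wild type, orange symbols Ucn3 null, the symbol shape gives the replicate, and the black marks are the mean ± SD of 3 animals (not drawn for Slc32a1, at 0 in 4 libraries). The genotypes overlap in every panel except that of Gabbr2, where the lowest null value, 3.65, lies just above the highest wild-type value, 3.64.

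The receptor genes followed at lower levels. Gabbr1, whose product binds GABA, held 6.21, 4.86 and 6.96 RPKM in wild type against 5.67, 6.37 and 7.24 RPKM in Ucn3 null replicates 1 to 3. The groups overlapped, at 6.01 ± 1.06 and 6.43 ± 0.79 RPKM (SD, n = 3 per genotype; log2 difference 0.09, SE 0.13, limma adjusted p = 0.88), and without wild type replicate 2, the lowest library, the difference was -0.03.

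Gabbr2, whose product couples the receptor to its G protein, held 3.41, 2.99 and 3.64 RPKM in wild type against 3.65, 5.03 and 3.96 RPKM in Ucn3 null replicates 1 to 3. All null libraries lay above all wild-type libraries, the nearest pair being 3.64 and 3.65 RPKM. The means were 3.35 ± 0.33 and 4.21 ± 0.72 RPKM (SD, n = 3 per genotype), a null to wild type ratio of 1.26 and the widest difference of the 4 tested genes (log2 difference 0.25, SE 0.11), but it did not pass (limma adjusted p = 0.54). Without Ucn3 null replicate 2, the highest library, it was 0.15, and with 1 library left out it ran from 0.15 to 0.33.

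Gabbr1 exceeded Gabbr2 in all 6 libraries, 1.27 to 1.91 times. The ratio averaged 1.79 ± 0.15 in wild-type animals against 1.55 ± 0.28 in null animals (SD, n = 3 per genotype), and the groups overlapped (exact two-sided permutation p = 0.3, adjusted over 3 ratios p = 0.9). Messages for both subunits of the GABA-B receptor were thus present in each animal, that of the GABA-binding subunit being the higher in RPKM.

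Gabra4, an alpha subunit of the GABA-A receptor, held 0.73, 0.74 and 0.93 RPKM in wild type against 1.04, 1.03 and 0.72 RPKM in Ucn3 null replicates 1 to 3. Ucn3 null replicates 1 and 2 were the highest and replicate 3 was the lowest of the 6. The means were 0.80 ± 0.11 and 0.93 ± 0.18 RPKM (SD, n = 3 per genotype; exact two-sided permutation p = 0.4), from about 128 to 222 reads a library. With the acinar covariate its log2 difference was 0.0026 (SE 0.13), from 0.10 without it. Among the 6 alpha subunit genes it was the most abundant, 8.38 times the next, Gabra3.

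By mean level the order was Gad1, Abat, Gabbr1, Gabbr2, Gabra4, Gad2 and Slc32a1. Neighbours whose ranges over the 6 libraries overlapped were Gad1 and Abat, Gabbr1 and Gabbr2, and Gad2 and Slc32a1, although Gabbr1 and Gad2 were each above their neighbour in every library. Abat stood above Gabbr1, Gabbr2 above Gabra4, and Gabra4 above Gad2 without overlap.

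Over the whole table, 12652 genes averaging at least 1 RPKM were tested with limma, a linear model per gene with moderated variances, and p-values were adjusted over all of them by the Benjamini-Hochberg method. Of the 7 genes, 4 met that minimum (Gad1, Abat, Gabbr1 and Gabbr2) and 3 did not. None of the 4 passed an adjusted p of 0.05, where 0.0158% of all genes passed; none had an unadjusted p under 0.05 either, and limma-voom on estimated reads also called 0, with 0 at an unadjusted p under 0.05. Groups did not overlap for 1 of the 4, Gabbr2, which was higher in null islets; over all genes 1.9% were higher and 13.2% lower without overlap. All 4 differences were positive, with a median of 0.11 against -0.03 for all genes tested, of which 61.7% had a negative difference. The sign turned, however, for Gad1 with the acinar covariate or without Ucn3 null replicate 1, and for Gabbr1 without wild type replicate 2.

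The libraries matched their labels for the targeted gene, with 136 to 157 RPKM of Ucn3 in wild type and 1.61 to 1.80 RPKM in null islets. Depth estimated from the steps between low values was 42610000 to 51910000 reads a library. Endocrine markers were abundant in every library (Gcg at 5836 to 10055 RPKM). Other cell types differed between libraries: the summed delta cell markers were 1746 to 2404 RPKM in wild type and 682 to 1083 RPKM in null islets, the summed ductal markers 149 to 189 and 96.4 to 148 RPKM, and acinar markers differed as given above. In whole islets, fewer cells of a type and less RNA per cell cannot be told apart.

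The list of GABA synthesis and breakdown genes, with Gad1, Gad2 and Abat among them, held no called change. Of its 17 genes 15 were tested, 0 passed in either direction, 7 differences were positive and 8 negative, and the median log2 difference was -0.01 against -0.03 for all genes tested. Glul, glutamine synthetase, stood at 61.1 ± 5.49 and 60.4 ± 3.95 RPKM, and Suclg1, a subunit of succinyl-CoA ligase, at 27.5 ± 3.39 and 25.3 ± 1.41 RPKM for wild-type and Ucn3 null animals (SD, n = 3 per genotype). Aldh5a1, succinic semialdehyde dehydrogenase and the step after Abat, stood at 5.0 ± 0.41 and 5.13 ± 0.11 RPKM (SD, n = 3 per genotype), below Abat itself.

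Outside the rule for named genes, and chosen after its values were seen, is Gadl1, whose product resembles glutamate decarboxylase but acts on other acidic amino acids. It held 18.2, 19.4 and 17.2 RPKM in wild type against 14.9, 15 and 17.0 RPKM in Ucn3 null replicates 1 to 3. All null libraries lay below all wild-type libraries, narrowly for 1 pair (log2 difference -0.22, SE 0.08, limma adjusted p = 0.49). Its level was far above that of Gad2 and near that of Gad1. Gls2, a glutaminase also chosen after its values were seen, averaged under 1 RPKM, at 0.69 ± 0.093 RPKM in wild-type animals against 1.17 ± 0.225 RPKM in null animals (SD, n = 3 per genotype). Its groups did not overlap (exact two-sided permutation p = 0.1, the smallest this design allows). In the fit without a filter its log2 difference was 0.36 (SE 0.09, limma adjusted p = 0.55), and with the acinar covariate 0.22. Gabra3 and Gabrd, also under 1 RPKM, did not overlap either, but both were lower in null islets. The share of all genes under 1 RPKM without overlap was not counted.

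Messages of 3 plasma membrane carriers of GABA were scarce. Slc6a12 held about 1 to 4 reads a library and Slc6a13 0 to 4, while Slc6a11 averaged 0.080 RPKM. Slc6a6, a taurine transporter that can also carry GABA, stood at 28.0 ± 1.94 RPKM in wild type against 30.7 ± 1.59 RPKM in null islets (SD, n = 3 per genotype; log2 difference 0.13, limma adjusted p = 0.65). Of the volume-regulated anion channel, Lrrc8d stood at 18.4 ± 0.67 and 17.8 ± 1.6 RPKM and Lrrc8a, the subunit every such channel needs, at 2.60 ± 0.62 and 2.66 ± 0.06 RPKM for wild-type and Ucn3 null animals (SD, n = 3 per genotype). Of 12 transport and release genes 4 were tested and 0 passed, with a median log2 difference of 0.0015. Among the transport genes named here, Slc6a6 and Lrrc8d were abundant in both genotypes and Lrrc8a was lower, while Slc32a1, Slc6a12 and Slc6a13 were near 0.

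**Figure D2:**
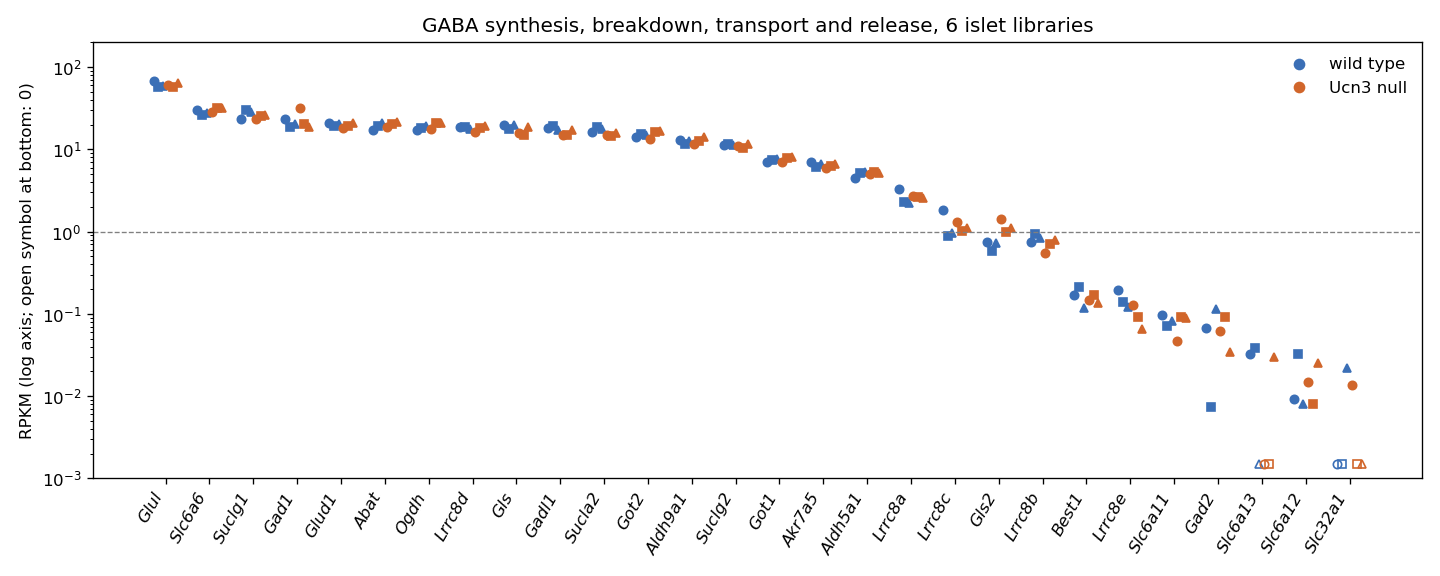
RPKM on a log axis for 28 genes of GABA synthesis, breakdown, transport and release, ordered by mean; each symbol is 1 library, blue for wild type and orange for Ucn3 null, open symbols at the bottom are libraries at 0, and the dashed line is the minimum mean of 1 RPKM for testing. Gad1 and Abat lie near 20 RPKM, whereas Gad2 and Slc32a1 lie below 0.12 RPKM in all libraries.

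GABA-A subunits were expressed very unevenly. Of 19 subunit genes 4 averaged at least 1 RPKM and 8 under 0.1 RPKM. Gabrb1, a beta subunit, took 60.2% to 62.3% of the RPKM summed over all subunits in each library, Gabrg3 7.48% to 10.6%, Gabrr3 6.51% to 8.70% and Gabra4 1.45% to 2.49%. The message of this beta subunit therefore far outweighed that of Gabra4 in both genotypes.

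Gabrb1 held 30.8, 29.5 and 27.8 RPKM in wild type against 25.4, 25.3 and 27.9 RPKM in Ucn3 null replicates 1 to 3. The groups overlapped only through wild type replicate 3 and Ucn3 null replicate 3 (log2 difference -0.16, SE 0.07, limma adjusted p = 0.56). Gabrr3, a rho subunit, stood at 3.43 ± 0.13 and 3.61 ± 0.37 RPKM for wild-type and Ucn3 null animals (SD, n = 3 per genotype).

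Gabrg3, a gamma subunit, was at 4.90, 4.76 and 4.87 RPKM in wild type against 4.07, 3.08 and 4.17 RPKM in Ucn3 null replicates 1 to 3. All null libraries were below all wild-type libraries, which held close together, but the difference did not pass (log2 difference -0.30, SE 0.10, limma adjusted p = 0.49). Without Ucn3 null replicate 2, the lowest library, it was -0.19. Gabrp, the pi subunit, known from epithelia, averaged under 1 RPKM, at 1.65, 1.5 and 0.50 RPKM in wild type against 0.65, 0.22 and 0.29 RPKM in Ucn3 null replicates 1 to 3. The 2 libraries with the most Gabrp, wild type replicates 1 and 2, also had the highest ductal marker sums, at 188 and 189 RPKM, against 96.4 to 149 RPKM in the others; the part of ductal cells in these values was not tested. Of the 4 tested subunits 0 passed, 2 differences were positive and 2 negative, with a median of -0.05. Gabrg3, Gabrr3 and Gabrp were not named by the rule but picked from their values.

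**Figure D3:**
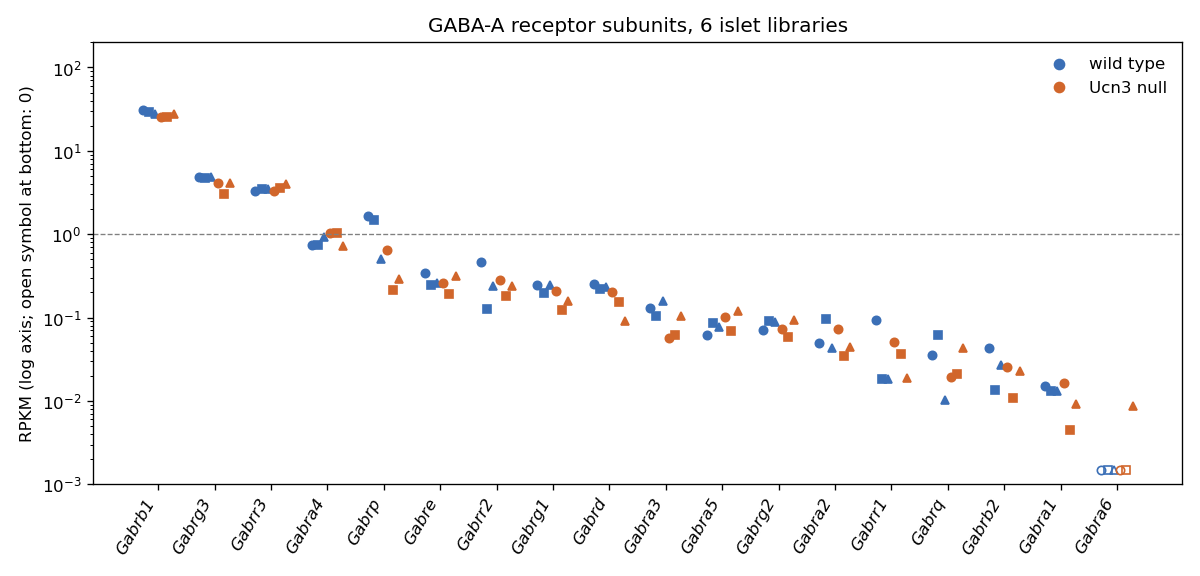
RPKM on a log axis for 18 GABA-A subunit genes, ordered by mean; each symbol is 1 library, blue for wild type and orange for Ucn3 null, open symbols at the bottom are libraries at 0, and the dashed line is at 1 RPKM. Gabrb1 lies near 28 RPKM and Gabra4 at 0.72 to 1.04 RPKM, with the other alpha subunits lower.

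Partners of the receptors were present in both genotypes. Among 13 GABA-B subunits, auxiliary subunits and effectors 10 were tested and 0 passed, with 6 positive and 4 negative differences and a median of 0.07. Gnao1 and Gnai2, alpha subunits of inhibitory G proteins, stood at 90.1 ± 8.20 and 78.6 ± 5.06 RPKM in wild type and at 97.6 ± 3.52 and 76.7 ± 9.30 RPKM in null islets (SD, n = 3 per genotype). Of 15 genes of GABA-A anchoring and trafficking all were tested and 0 passed, with a median of -0.04. Gabarap, which binds the receptor and also serves autophagy, stood at 117 ± 10.9 and 99.5 ± 5.31 RPKM, and Hap1, a trafficking adaptor, at 58.3 ± 11.6 and 53.1 ± 8.65 RPKM for wild-type and Ucn3 null animals (SD, n = 3 per genotype).

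Chloride transporters, which set whether an open GABA-A channel lets chloride in or out, did not pass the test either. All 5 were tested and 0 passed, with a median of -0.03. Slc12a2, which brings chloride into cells, stood at 2.20 ± 0.12 and 1.92 ± 0.13 RPKM, and Slc12a5, which exports it, at 2.81 ± 0.46 and 3.21 ± 0.28 RPKM for wild-type and Ucn3 null animals (SD, n = 3 per genotype). Slc12a7, a further exporter, was more abundant, at 14.1 ± 1.80 and 15.1 ± 2.62 RPKM (SD, n = 3 per genotype).

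Over the 6 lists 53 of 81 genes were tested and none passed in limma. Differences were positive for 26 and negative for 27, where 61.7% of all genes tested had a negative difference. At an unadjusted p under 0.05 limma counted 5 of the 53, where 9.36% of all genes did, and limma-voom counted 10 and called 0, where 12% of all genes had an unadjusted p under 0.05 in that fit and 0.0402% passed after adjustment. Among the 53 tested, groups did not overlap for 8 lower genes and for Gabbr2, which was higher, against 15.2% of all genes in either direction. The 8 lower genes were Gabrg3, Gadl1, Sucla2, Kctd8, Gabarap, Gabarapl2, Plcl1 and Slc12a2. These genes were named after their values were seen. Delta cell, ductal and acinar marker sums differed between the same libraries, and the part of delta, ductal or acinar cells in these values was not tested. With the acinar covariate the difference was nearer to 0 for Gabarap (-0.05, from -0.23), Plcl1 (-0.02, from -0.16), Gadl1 (-0.10, from -0.22), Sucla2 (-0.10, from -0.21), Gabarapl2 (-0.12, from -0.22), Kctd8 (-0.11, from -0.19) and Gabbr2 (0.18, from 0.25). It was about as large for Gabrg3 (-0.29, from -0.30) and Slc12a2 (-0.15, from -0.14). None of these differences passed with the covariate, which goes partly with genotype, as given for Gad1. How many of all genes moved nearer to 0 with it was not counted.

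**Figure D4:**
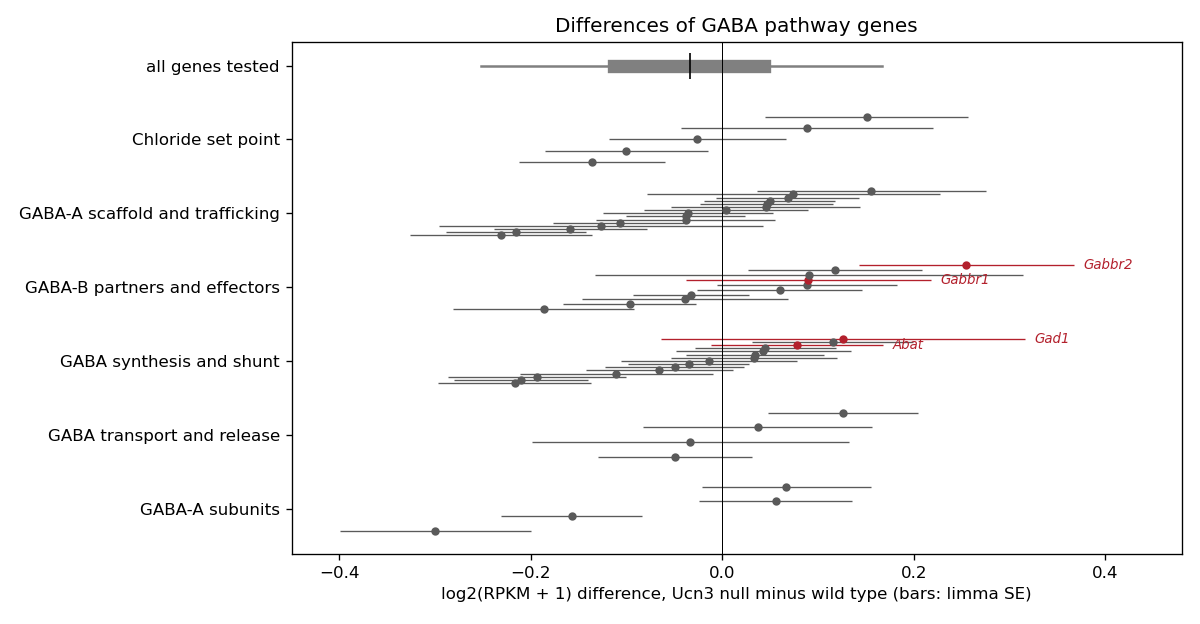
Differences on the log2(RPKM + 1) scale, Ucn3 null minus wild type, for the 53 tested genes of 6 GABA lists; points are genes, bars are limma standard errors, and Gad1, Abat, Gabbr1 and Gabbr2 are in red. The top row gives all genes tested. Its thin line runs from the 5th to the 95th percentile, its thick line from the 25th to the 75th, with a tick at the median of -0.03. Gabbr2, at 0.25, lies beyond the 95th percentile of 0.17, and Gabrg3, at -0.30, beyond the 5th percentile of -0.25.

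The genes most like each tested gene in pattern were found by the SD, over the 6 libraries, of the difference in log2(RPKM + 1). For Gad1, Actr3b, of an actin-nucleating complex, had an SD of 0.064, against a median of 0.33 over all genes. Actr3b held 3.81, 2.63 and 2.93 RPKM in wild type against 4.83, 3.16 and 2.83 RPKM in Ucn3 null replicates 1 to 3, so it too was highest in Ucn3 null replicate 1. For Abat they were AI428936 and Pomt2, both with 0.023, for Gabbr1 Safb with 0.028 and Safb2 with 0.029, and for Gabbr2 Ubr4 with 0.052 and 1700001G11Rik with 0.055. Ubr4, a ubiquitin ligase gene, shared with Gabbr2 its highest value in Ucn3 null replicate 2, at 29.5 RPKM, and its lowest in wild type replicate 2, at 20.4 RPKM. Out of 12652 genes some must lie close to any pattern over 6 libraries, so these are descriptions only.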

How the data were processed

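RNA of isolated islets from 6 mice was sequenced as 1 library each, made with a TruSeq kit per the labels' protocols. The authors deposited RPKM values, 1 row per RefSeq transcript; STAR, bedtools, DESeq and build mm9 are named, without roles, per the submitters' processing notes. For shared reads and strand, the handling is not given in those notes. Of 28129 rows, 117 without values and 1 with text in a value were left out.

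Per symbol the transcript with the highest mean was kept, and genes averaging at least 1 RPKM were fitted with limma 3.58.1 (R 4.3.3) on log2(RPKM + 1), group as the only term, eBayes with a mean trend, Benjamini-Hochberg adjustment, threshold 0.05. The fit was tested on simulated data with independent normal noise, which lack the differences in cell types between these libraries. Ratios were tested with exact two-sided permutation tests (scipy 1.17.1). P-values measure the spread between 3 animals a group. Low RPKM values times GENCODE M21 transcript length fall on steps of 1 read, which gave depths; 76.0% to 77.2% of them came within 0.1 of a whole read, so reads are estimates, and intervals cover counting error only. Reads of Abat depend on the transcript length used, at about 1763 to 2437 a library with that of the kept transcript, which limma-voom used. With the length of its other transcript they were 3263 to 4510. The reference build differs from mm9, so its coordinates are given only with the printed sequences, which are RefSeq's.

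The rule named the 7 genes, any called gene of 6 GABA lists or else its 2 most abundant tested genes, and a few fixed carriers and transporters. Members and lists were chosen with earlier results of these data known. Values of some genes the rule named are not reported here. Alternatives were another pseudocount, no filter, median-ratio scaling, an acinar covariate, limma-voom, the second transcript and leaving out each library. Figures were drawn with matplotlib 3.10.9.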

Additional observations from a re-analysis of the deposited data

How the results depend on the processing

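No paired analysis was possible because no label ties a null animal to a wild-type animal. None of the 75 refitted differences of the 7 genes passed (smallest limma adjusted p = 0.44). Over all genes, 2 passed with the main settings, 4 without a filter, 1 with the acinar covariate, 5 with limma-voom and 1 to 5 with 1 library left out. The cause was not tested for any of these or for the changes of sign that follow, all of them in differences that did not pass.

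With the acinar covariate the log2 difference turned to -0.26 for Gad1, -0.065 for Gad2, 0.15 for Gnai2, 0.13 for Hap1, 0.021 for Lrrc8d and 0.10 for Suclg1. With median-ratio scaling it turned to 0.033 for Glul and 0.0082 for Gnai2, and with limma-voom to -0.013 for Aldh5a1. The Gad2 to Gad1 ratio turned to -0.087 with 0.1 RPKM added to both genes. With 1 library left out the ranges crossed 0 for Gad1 (-0.10 to 0.27), Gad2 (-0.037 to 0.036), Slc32a1 (-0.010 to 0.0065), Gabbr1 (-0.034 to 0.19), Aldh5a1 (-0.022 to 0.076), Gabrr3 (-0.0056 to 0.11), Glul (-0.062 to 0.057), Gnai2 (-0.092 to 0.064), Hap1 (-0.27 to 0.015), Lrrc8d (-0.11 to 0.017), Slc12a7 (-0.041 to 0.18), the Gad2 to Gad1 ratio (-0.64 to 1.27) and the decarboxylase to Abat ratio (-0.24 to 0.24). Abat, Gabra4 and Gabbr2 stayed positive, but Gabra4 fell to 0.0026 with the acinar covariate and Abat to 0.0095 without wild type replicate 1. At this depth Slc32a1 was too scarce for a difference to be seen.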
